A study of Homo sapiens with 26 samples.

Results

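Keratins are the proteins of the intermediate filaments of epithelial cells. Each filament is built from pairs of an acidic type I and a basic type II keratin, and the pair in use marks the kind of epithelium. In the airway, KRT5 with KRT14 or KRT15 marks the basal cells that sit on the basement membrane, KRT8 with KRT18 or KRT19 and KRT7 mark simple and luminal epithelium, and KRT6A and KRT17 are induced in wounded or activated epithelium. The genes described here are KRT5, KRT6A, KRT7 and KRT8 (type II) and KRT13, KRT14, KRT15, KRT17, KRT18 and KRT19 (type I), taken by symbol from a count table of 58735 genes. All 10 were found. In the tests, 9 of the 10 passed the filter on low counts, and KRT13, a keratin of the suprabasal layers of stratified mucosa, did not.

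Messenger RNA was sequenced from 26 libraries of 16HBE, an immortalised human bronchial epithelial line, to ask how raised glucose affects airway cells with and without a cystic fibrosis mutation. CF cells (16HBEge, genotype DeltaF508 CFTR) gave 6 libraries in high glucose (17.5 mM) and 6 in normal glucose (5.5 mM). WT cells (16HBE14o-, genotype WT CFTR) gave 5 in high and 6 in normal glucose, and each medium was kept for 7 days. The last 3 libraries are labelled not polarized and come from the WT line at 5.5 mM. Cells had been plated at 250000 per well on permeable supports, and 2 wells were pooled per library. The CF cells are a single gene-edited derivative, so the mutation and any other difference between the lines cannot be told apart. The labels give no separate culture protocol for the not polarized cells, so polarization and any other difference in their handling cannot be told apart either. Nothing in the labels ties the libraries of a group to separate cultures, and the p-values below therefore measure only the spread between these samples, which may be technical.

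The libraries held between 14658319 and 20413839 counts, and 35380 genes had at least 1 read. The 10 keratins took a mean of 0.505 ± 0.035% of all counts in CF cells in high glucose (SD, n = 6), 0.517 ± 0.017% in CF cells in normal glucose (n = 6), 0.442 ± 0.014% in WT cells in high glucose (n = 5), 0.466 ± 0.026% in WT cells in normal glucose (n = 6) and 0.508 ± 0.003% in not polarized cells (n = 3). Libraries are numbered 1 to 6 within the glucose groups. For several genes those numbered 1 to 3 stood apart from those numbered 4 to 6, and the labels do not say what the numbers mark. Values within each set of numbers are therefore given beside the results they touch. In bulk RNA, fewer cells of a type and less RNA per cell cannot be told apart.

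The keratins lie in a cluster on each of 2 chromosomes (GRCh38, GENCODE 29). The type II genes KRT7 (chr12:52232520-52252186, plus strand), KRT6A (chr12:52487174-52493257, minus strand), KRT5 (chr12:52514575-52520687, minus strand) and KRT8 (chr12:52897187-52949954, minus strand) are followed by KRT18 (chr12:52948871-52952901, plus strand), the type I gene that lies outside the type I cluster. The other type I genes lie on the minus strand of chromosome 17: KRT13 (chr17:41500981-41505705), KRT15 (chr17:41513743-41522529), KRT19 (chr17:41523617-41528308), KRT14 (chr17:41582279-41586921) and KRT17 (chr17:41619441-41624842). KRT8 and KRT18 overlap on opposite strands over 1084 bases, of which 525 are exonic in both genes. Those bases are 7.63% of the exonic bases of KRT8 and 16.3% of those of KRT18. Because the strand setting of the counting is not given in the sources used here, reads from the overlap may be counted for either gene.

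Keratins also share sequence with near copies. Of all 50-base stretches of the annotated transcripts, 32.1% of those of KRT6A occur in another gene, mostly KRT6C, against 24.5% for KRT18, 16.8% for KRT14, 16.1% for KRT8 and at most 13.2% for each of the other 6. The near copies of KRT6A held few reads: KRT6B had 30 and KRT6C 7 in all 26 libraries together, against 2252 for KRT6A. KRT14 differed in this, since KRT16, the gene that holds most of its shared stretches (7.89%), had 6044 reads against 1083 for KRT14. Of 147 keratin pseudogenes in the table, 72 had a read, and their mean levels summed to 17.9 CPM (each count scaled to the adjusted total of its library). The 5 highest were KRT87P, KRT16P6, KRT8P12, KRT8P3 and KRT8P33, and KRT16P6 averaged 2.65 to 3.72 CPM in the polarized groups and 0.623 CPM in not polarized cells, a level like that of KRT14. The levels of KRT6A, KRT14, KRT8 and KRT18 are uncertain to the extent that shared reads were assigned or dropped.

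RefSeq promoter sequences (GRCh38.p14) were at hand for 2 of the 10 genes. No others were at hand, and no tie between these sequences and the calls of the 2 genes was tested. Each line gives the 150 bases before the RefSeq transcription start, on the minus strand of chromosome 12, read 5′ to 3′, KRT5 from chr12:52520395-52520544 and KRT8 from chr12:52926470-52926619.
KRT5: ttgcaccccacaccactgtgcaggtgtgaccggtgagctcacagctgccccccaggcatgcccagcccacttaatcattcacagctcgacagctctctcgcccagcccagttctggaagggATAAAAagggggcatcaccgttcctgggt
KRT8: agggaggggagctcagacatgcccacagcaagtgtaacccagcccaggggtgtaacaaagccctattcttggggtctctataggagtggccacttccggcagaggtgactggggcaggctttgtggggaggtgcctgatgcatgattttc
The capitals mark ATAAAA. This motif, which resembles the TATA box, was looked for after the sequence had been seen and begins 29 bases before the start of KRT5. It was found on either strand in 8.61% of 35116 promoter windows of the same length. Searched on both strands, the TATA box TATAAA (6.71% of windows), the AP-1 motif TGANTCA (4.17%), the GC box GGGCGG (36.8%) and the AP-2 motif GCCNNNGGC (13.6%) were in neither window. Both windows lie inside the annotated gene spans given above, and KRT5 has 11 and KRT8 17 annotated transcripts. Other starts were not searched, so the absence of a motif holds for these windows only.

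Markers of simple epithelium were high, and those of basal cells were divided. EPCAM and CDH1, adhesion proteins of simple and luminal epithelium, ran from 439 to 723 CPM and from 698 to 1275 CPM. TP63, the transcription factor that defines basal cells, lay between 0.060 and 1.06 CPM, and the basal receptor NGFR averaged at most 2.84 CPM in any group. KRT14 stayed between 0.682 and 5.51 CPM. Genes of basal cell adhesion were high, with highest group means of 1762 CPM for the laminin chain LAMB3, 1730 CPM for the integrin ITGB4, 903 CPM for the hemidesmosome collagen COL17A1 and 469.9 CPM for the integrin ITGA6, and EGFR reached 1150.2 CPM. The 12 basal genes other than keratins summed to 4558.5 to 7497 CPM in polarized libraries and 2768 to 2807 CPM in not polarized ones, against 4487 to 5782 CPM and 4654 to 4677 CPM for the 13 simple and luminal genes. KRT5, KRT14 and KRT15 are called basal keratins here by their known role. The summed level of 6 secretory cell markers did not exceed 0.520 CPM in any library.

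On a scale per transcript length, 4 keratins made up most of the set in polarized cells. In FPKM (fragments per kilobase, scaled to library size, with the gene length of the deposited table), KRT19 took the highest mean share of the 10 in all 5 groups. Its share was 44.4 ± 1.0% in CF cells in high glucose, 45.4 ± 1.5% in CF cells in normal glucose, 38.2 ± 0.9% in WT cells in high glucose, 42.8 ± 0.7% in WT cells in normal glucose and 33.0 ± 0.2% in not polarized cells (SD). KRT8 came next with mean shares of 19.95% to 27.8%, and KRT18 held 12.7% to 26.7%. KRT17 varied most between groups, from 17.05 ± 3.18% in CF cells in normal glucose to 2.52 ± 0.06% in not polarized cells. KRT7 held 3.52% to 9.31%, KRT5 0.494% to 1.39%, and the other 4 less than that.

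**Figure D1:**
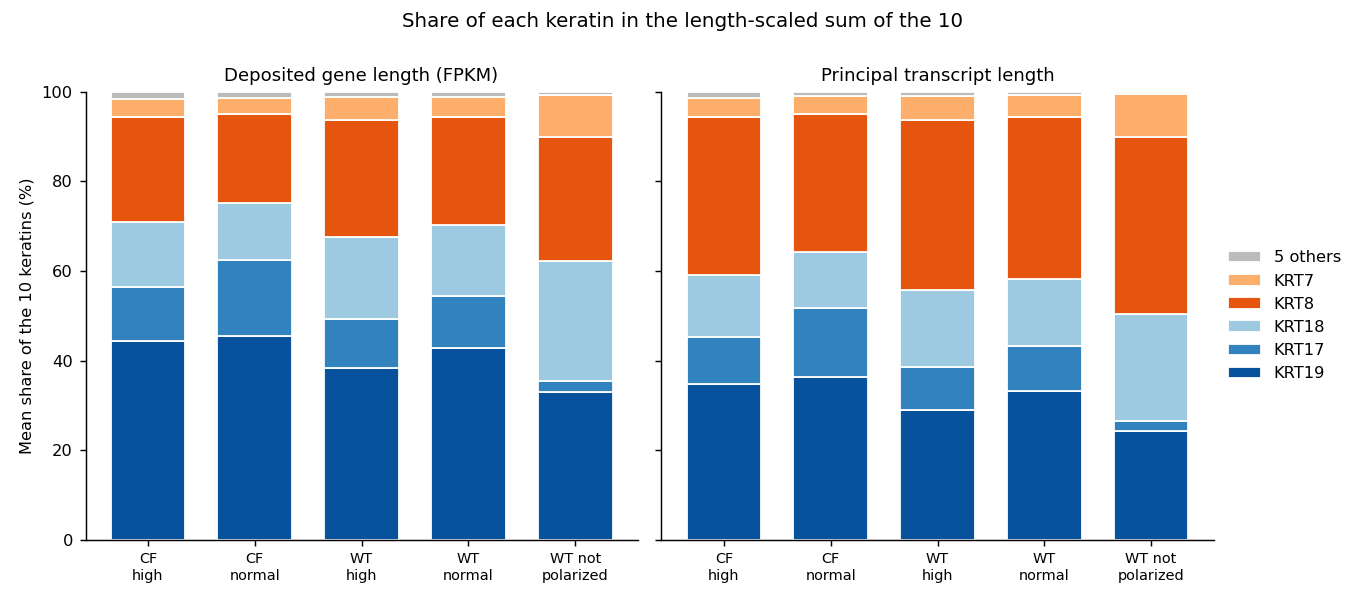
Mean share of each keratin in the length-scaled sum of the 10 (vertical axis, percent) in the 5 groups, with type I keratins in blue and type II keratins in orange. The left panel uses the deposited gene length and the right panel the length of the principal transcript. KRT17 takes 17.05% of the bar for CF cells in normal glucose and 2.52% of that for not polarized cells in the left panel.

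The balance of type I over type II keratins also differed. Summed FPKM of the 6 type I genes was 2.46 ± 0.21 times that of the 4 type II genes in CF cells in high glucose, 3.07 ± 0.34 times in CF cells in normal glucose, 2.12 ± 0.17 times in WT cells in high glucose, 2.38 ± 0.19 times in WT cells in normal glucose and 1.65 ± 0.01 times in not polarized cells (SD). The absolute ratio depends on the length used. The deposited length of KRT8 is 6881 bases, all exons of 17 transcripts together, while its principal transcript has 2126 bases. With principal transcript lengths the ratios were 1.46, 1.82, 1.27, 1.41 and 1.02 in the same order of groups, which kept the order of the groups, and KRT8 then held a higher mean share than KRT19 in CF cells in high glucose (35.2% against 34.7%), WT cells in high glucose (38.0% against 29.1%), WT cells in normal glucose (36.1% against 33.2%) and not polarized cells (39.5% against 24.3%).

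High glucose moved few of the keratins. In CF cells 2 of the 9 tested keratins were called at an adjusted p under 0.05, KRT17 and KRT19, both lower in high glucose, where 8.41% of 16338 genes were called (4.27% higher and 4.14% lower). In WT cells 2 of 9 were called, KRT6A higher and KRT19 lower, where 2.96% of genes were called (1.49% higher and 1.47% lower). None of the 9 was called for a different glucose response in CF and WT cells, where 0.0367% of genes (6) were called with edgeR (0.0122% higher and 0.0245% lower) and 1109 had an unadjusted p under 0.05. Of the keratins, KRT17 and KRT15 had an unadjusted p under 0.05 in that comparison.

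The lines differed in more of them. In high glucose 6 of 9 were called, with KRT5, KRT6A, KRT15, KRT17 and KRT19 higher and KRT14 lower in CF cells, where 19.9% of genes were called (9.35% higher and 10.6% lower). All 6 had groups that did not overlap, as did 14.1% of genes. In normal glucose 5 of 9 were called, the same ones without KRT15, where 24.4% of genes were called (11.4% higher and 13% lower). Of these 5, all but KRT5 had groups that did not overlap, as did 13.1% of genes. Between polarized and not polarized WT cells 6 of 9 were called, where 50% of 16105 genes were called (26% higher and 24% lower). All 6 had groups that did not overlap, as did 46.6% of genes. With such a background, the count by itself says little about the keratins. KRT17, KRT14, KRT5 and KRT19 were higher and KRT7 and KRT18 lower in polarized cells. Median log2 fold changes of the 9 were 0.06 for glucose in CF cells, -0.04 for glucose in WT cells, 0.39 between lines in high glucose, 0.15 between lines in normal glucose and 0.04 for polarization, and those of all genes lay between -0.00 and 0.02.

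**Figure D2:**
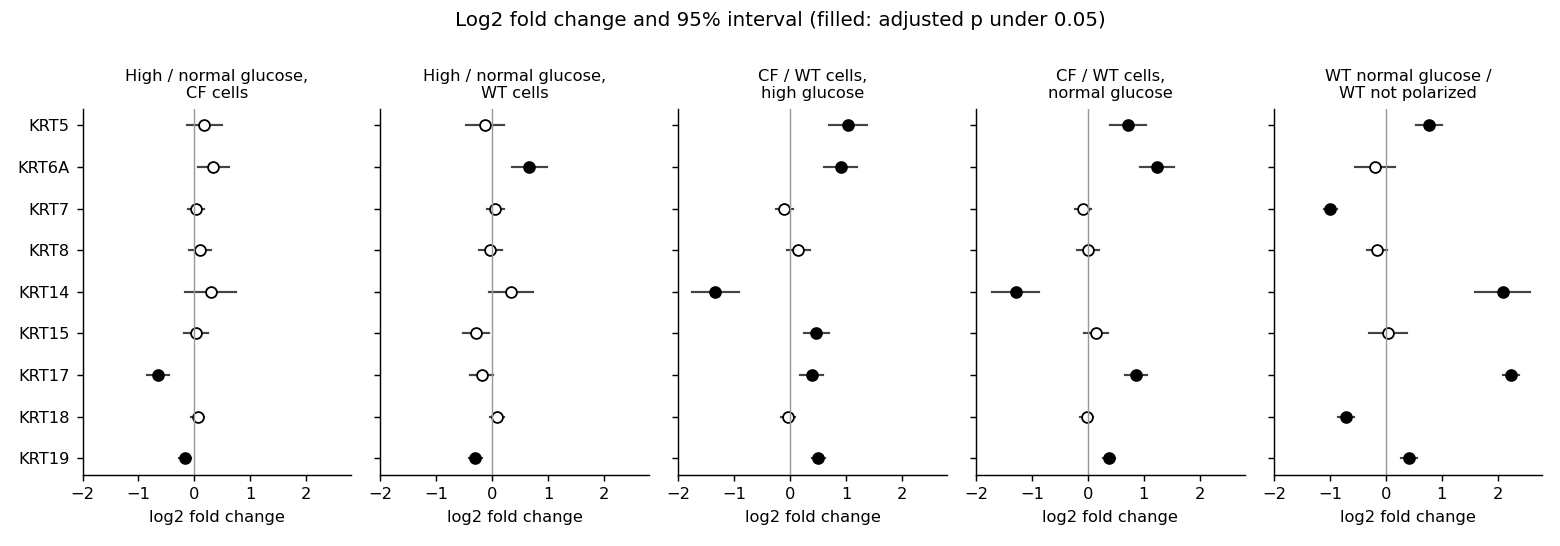
Log2 fold change (horizontal axis) of the 9 tested keratins in 5 comparisons, with 95% intervals from edgeR, in the direction named above each panel. Filled points have an adjusted p under 0.05. The simple keratins KRT7, KRT8 and KRT18 lie near 0 in the 4 comparisons of glucose and line, and KRT17 and KRT14 lie near 2 in the comparison of polarized with not polarized cells.

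KRT5, the type II keratin of basal cells, was highest in CF cells. Its level ran from 58.2 to 103 CPM in CF cells in high glucose (median 79.6) and from 48.5 to 99.0 CPM in CF cells in normal glucose (median 69.9). It was 39.3, 33.9, 42.0, 44.4 and 35.5 CPM in the 5 libraries of WT cells in high glucose. In WT cells in normal glucose it ran from 34.9 to 51.5 CPM (median 42.9), against 25.8, 23.4 and 27.7 CPM in not polarized cells. Every CF library in high glucose was above every WT library in high glucose, whereas in normal glucose the lowest CF library lay within the WT range. KRT5 was 2.05-fold higher in CF than in WT cells in high glucose (log2 1.04 ± 0.17 SE, adjusted p = 4.24e-05) and 1.65-fold higher in normal glucose (log2 0.72 ± 0.16, adjusted p = 0.00106). It was 1.70-fold higher in polarized than in not polarized cells (log2 0.77 ± 0.11, adjusted p = 4.86e-05), without overlap. Glucose gave log2 0.18 ± 0.15 in CF cells and -0.14 ± 0.16 in WT cells, neither of which was called.

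The spread of KRT5 in CF cells followed the library numbers. In high glucose, CF libraries numbered 4 to 6 held 94.8 to 103 CPM and those numbered 1 to 3 held 58.2 to 64.4 CPM, and in normal glucose these sets held 78.1 to 99.0 CPM and 48.5 to 61.8 CPM. Within WT cells the sets overlapped in both media. The difference between lines was larger in the libraries numbered 4 to 6, with log2 1.28 ± 0.11 in high and 0.89 ± 0.10 in normal glucose, than in those numbered 1 to 3, with log2 0.69 ± 0.10 in high and 0.51 ± 0.10 in normal glucose. All 4 of these values were called, and the difference between the sets was not tested.

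KRT14, the type I partner of KRT5 in basal cells, went the other way between the lines. Its counts were low, 11 to 94 reads per library. It lay between 1.31 and 2.78 CPM in CF cells in high glucose (median 1.44) and at 5.51, 5.20, 3.40, 3.70 and 3.48 CPM in WT cells in high glucose. In normal glucose it lay between 0.850 and 1.92 CPM in CF cells (median 1.32) and between 2.83 and 4.09 CPM in WT cells (median 3.26). The lines did not overlap in either medium. KRT14 was 0.396-fold as high in CF as in WT cells in high glucose (log2 -1.34 ± 0.20, adjusted p = 1.51e-05) and 0.407-fold in normal glucose (log2 -1.30 ± 0.21, adjusted p = 2.20e-05). Not polarized cells had 1.01, 0.696 and 0.682 CPM, below every polarized WT library, and polarized cells were 4.25-fold higher (log2 2.09 ± 0.23, adjusted p = 5.11e-06).

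The KRT5 to KRT14 ratio in FPKM, which puts the basal pair side by side, was highest in CF cells. It ran from 12.3 to 41.6 in CF cells in high glucose (median 28.1) and from 17.1 to 62.0 in CF cells in normal glucose (median 26.4). In WT cells it ran from 3.46 to 6.57 in high glucose (median 5.42) and from 5.53 to 8.08 in normal glucose (median 7.04). In not polarized cells it ran from 13.6 to 21.6, above every polarized WT library. The type II member of the pair was in excess in every library.

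KRT15, the other type I keratin of basal cells, had low counts and group means that lay close together. It lay between 8.21 and 10.0 CPM in CF cells in high glucose (median 8.42) and between 7.66 and 9.63 CPM in CF cells in normal glucose (median 8.21). WT cells had 6.16, 5.99, 6.57, 6.69 and 5.86 CPM in high glucose and 5.70 to 9.24 CPM in normal glucose (median 7.65), and not polarized cells 8.92, 7.44 and 6.38 CPM. Neighbouring groups in the order of means all overlapped. It was called only between lines in high glucose, where CF cells were 1.39-fold higher without overlap (log2 0.47 ± 0.11, adjusted p = 0.00262). In normal glucose the lines gave log2 0.15 ± 0.10 with an adjusted p of 0.354. Its glucose response differed by log2 0.32 ± 0.15 between CF and WT cells (unadjusted p = 0.0441, adjusted p = 0.713). WT libraries in normal glucose held 5.70 to 7.41 CPM in numbers 1 to 3 and 7.89 to 9.24 CPM in numbers 4 to 6. Within these sets the lines in normal glucose gave log2 0.35 ± 0.15 and -0.01 ± 0.14. Glucose in WT cells gave log2 -0.08 ± 0.15 and -0.46 ± 0.16 within them, and none of these values was called.

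**Figure D3:**
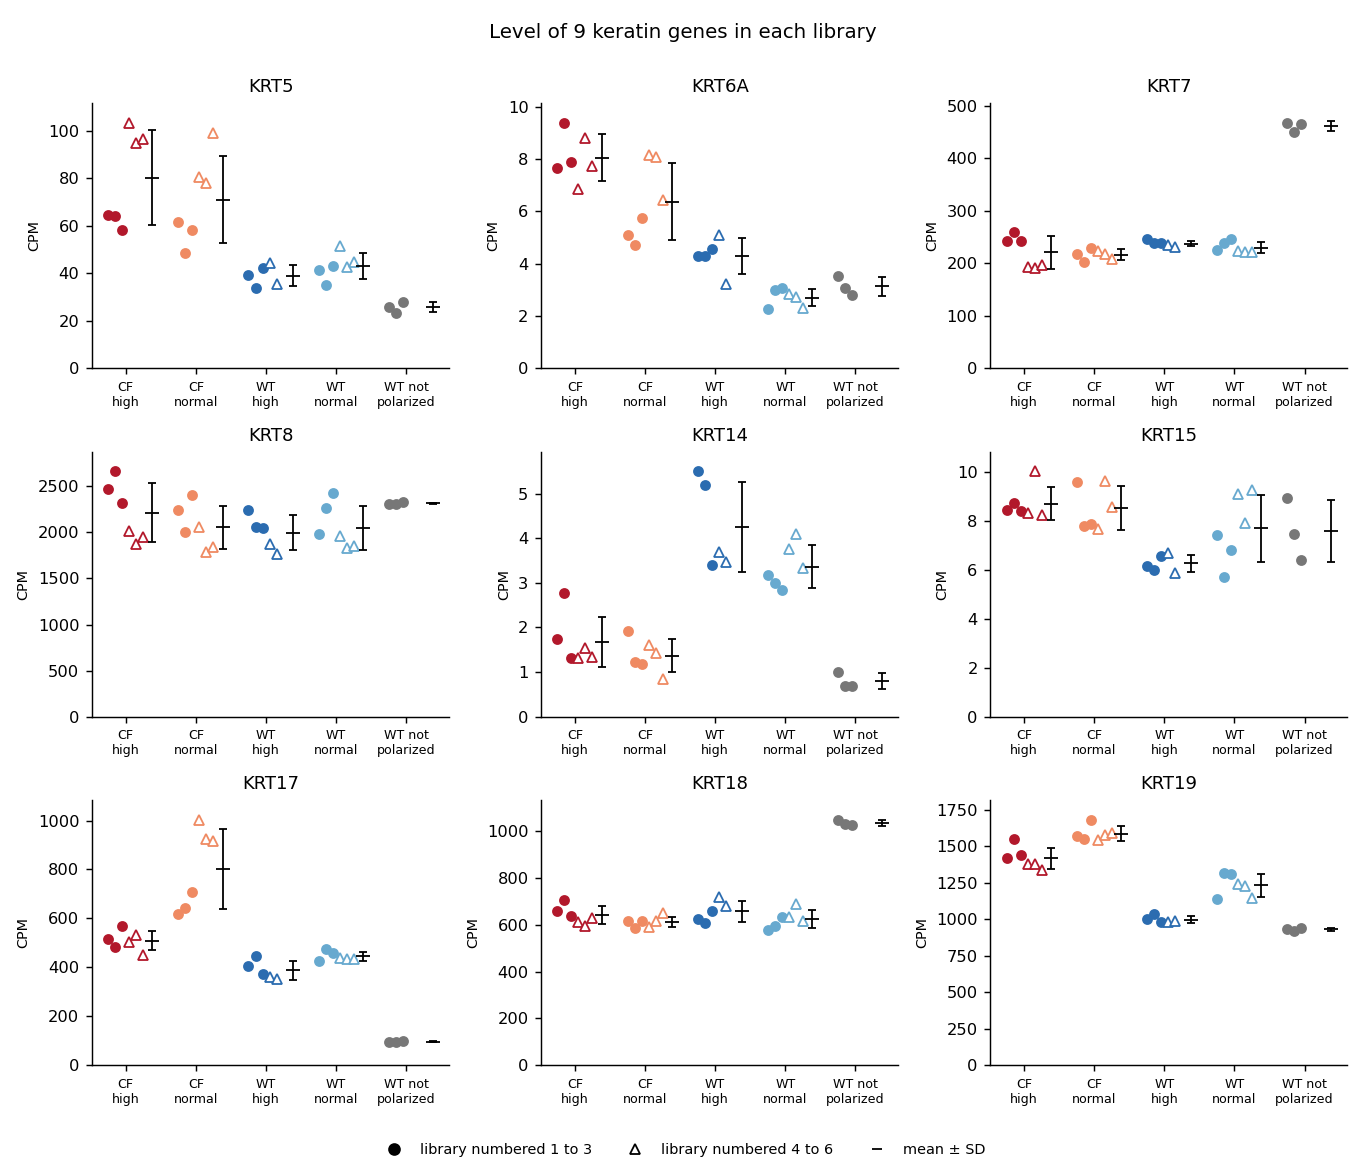
Level (CPM, vertical axis from 0) of the 9 tested keratins in each library of the 5 groups, with high and normal referring to glucose. Filled circles are libraries numbered 1 to 3, open triangles those numbered 4 to 6, and bars give the mean ± SD. In CF cells KRT5 separates the sets of numbers in both media, KRT7, KRT8, KRT18 and KRT19 in high glucose, and KRT6A and KRT17 in normal glucose. KRT7 and KRT18 of not polarized cells lie above all other libraries.

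KRT17, a type I keratin of activated and wounded epithelium, had the largest fold change with glucose of the 9 in CF cells over all libraries, though not in those numbered 1 to 3 alone, where KRT6A (log2 0.68) and KRT14 (0.44, not called) exceeded its -0.34 in absolute size. It lay between 451 and 568 CPM in CF cells in high glucose (median 509) and between 619 and 1004 CPM in CF cells in normal glucose (median 811). No library in high glucose reached the lowest one in normal glucose, and 4.68% of genes had groups that did not overlap in this comparison. KRT17 was 0.635-fold as high in high glucose (log2 -0.65 ± 0.10, adjusted p = 6.75e-05). WT cells had 406, 447, 373, 359.9 and 353 CPM in high glucose and 427 to 474 CPM in normal glucose (median 436). That difference was log2 -0.19 ± 0.10, with an adjusted p of 0.372. The responses of the lines differed by log2 -0.46 ± 0.14 (unadjusted p = 0.0024), which did not pass the adjustment over all genes (adjusted p = 0.304).

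The size of this response differed between the sets of library numbers, a difference that was not itself tested. CF libraries in normal glucose held 914 to 1004 CPM in the set numbered 4 to 6 and 619 to 708 CPM in the set numbered 1 to 3, while in high glucose both sets lay between 451 and 568 CPM. Within numbers 4 to 6 alone the response of CF cells was log2 -0.94 ± 0.06 (adjusted p = 4.37e-15), and within numbers 1 to 3 alone it was log2 -0.34 ± 0.07 (adjusted p = 0.00429). The difference in response between CF and WT cells was log2 -0.67 ± 0.09 (adjusted p = 2.40e-06) within numbers 4 to 6 and log2 -0.19 ± 0.10 (adjusted p = 0.641) within numbers 1 to 3. The direction was the same in both sets. In WT cells numbers 4 to 6 gave log2 -0.27 ± 0.07 (adjusted p = 0.00904) and numbers 1 to 3 log2 -0.14 ± 0.07 (adjusted p = 0.370).

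KRT17 was also higher in CF than in WT cells, 1.31-fold in high glucose (log2 0.39 ± 0.10, adjusted p = 0.00524) and 1.81-fold in normal glucose (log2 0.85 ± 0.10, adjusted p = 1.05e-07), without overlap in either medium. Within numbers 4 to 6 and 1 to 3 the difference in normal glucose was log2 1.12 ± 0.06 and 0.55 ± 0.07. It had the highest fold among the keratins for polarization. Polarized WT cells were 4.70-fold above not polarized cells (log2 2.23 ± 0.07, adjusted p = 1.28e-11), which had 95.02, 93.22 and 98.52 CPM.

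KRT6A, a type II keratin of wounded epithelium, was low, and was called for glucose in WT cells and between lines. It lay between 6.84 and 9.39 CPM in CF cells in high glucose (median 7.82) and between 4.71 and 8.15 CPM in CF cells in normal glucose (median 6.09). WT cells had 4.28, 4.28, 4.55, 5.09 and 3.23 CPM in high glucose and 2.27 to 3.05 CPM in normal glucose (median 2.78). All WT libraries in high glucose lay above all WT libraries in normal glucose, a difference of 1.59-fold (log2 0.67 ± 0.15, adjusted p = 0.0143), and 4.1% of genes had groups that did not overlap there. Within each set of numbers alone it missed the threshold at a like size, with log2 0.65 ± 0.19 (adjusted p = 0.0582) in numbers 1 to 3 and 0.68 ± 0.22 (adjusted p = 0.0574) in numbers 4 to 6. In CF cells the same contrast gave log2 0.34 ± 0.13 with an adjusted p of 0.124, with log2 0.68 ± 0.16 (adjusted p = 0.0103) within numbers 1 to 3 and 0.03 ± 0.17 (adjusted p = 0.932) within numbers 4 to 6. CF cells were above WT cells without overlap in both media, 1.88-fold in high glucose (log2 0.91 ± 0.14, adjusted p = 2.57e-05) and 2.35-fold in normal glucose (log2 1.24 ± 0.14, adjusted p = 2.21e-07). Not polarized cells had 3.54, 3.05 and 2.79 CPM, and polarization gave log2 -0.19 ± 0.17, which was not called.

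KRT8, the type II keratin of simple epithelium, was called in no comparison. It lay between 1871 and 2666 CPM in CF cells in high glucose (median 2166) and between 1790.5 and 2404 CPM in CF cells in normal glucose (median 2031). WT cells had 2247, 2058, 2053, 1875 and 1765 CPM in high glucose and 1833 to 2426 CPM in normal glucose (median 1970.5), and not polarized cells 2314, 2310.1 and 2327 CPM. The groups overlapped in every comparison. The 95% intervals of the fold were 0.939 to 1.23 for glucose in CF cells, 0.846 to 1.13 for glucose in WT cells, 0.960 to 1.28 between lines in high glucose, 0.877 to 1.15 between lines in normal glucose and 0.788 to 1.02 for polarization. With the library number as a block the lines differed in high glucose (log2 0.17 ± 0.06, adjusted p = 0.0232), as they did with a term for the sets of numbers (adjusted p = 0.0199). Within numbers 1 to 3 the value was log2 0.23 ± 0.08 (adjusted p = 0.0336) and within numbers 4 to 6 log2 0.07 ± 0.06 (adjusted p = 0.434). Without library 3 of WT cells in normal glucose polarization was called (log2 -0.21, adjusted p = 0.0398). Libraries numbered 4 to 6 had lower KRT8 means than those numbered 1 to 3 in all 4 glucose groups, for example 1943 ± 71 against 2485 ± 174 CPM in CF cells in high glucose (SD, n = 3 each).

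KRT18, the type I partner of KRT8, was called for polarization and for neither glucose nor line. It lay between 597 and 705 CPM in CF cells in high glucose (median 633) and between 588 and 649 CPM in CF cells in normal glucose (median 617). WT cells had 625, 608, 660.3, 721 and 681 CPM in high glucose and 576 to 689 CPM in normal glucose (median 625), so these 4 groups overlapped. Between lines in high glucose, libraries numbered 4 to 6 alone gave log2 -0.21 (adjusted p = 0.00981). Not polarized cells had 1051, 1031 and 1029.9 CPM, above all polarized libraries, and polarized WT cells were 0.608-fold as high (log2 -0.72 ± 0.06, adjusted p = 6.61e-07). The ratio of KRT8 to KRT18 in FPKM averaged 1.55 ± 0.22 in polarized WT cells in normal glucose (SD, n = 6) and 1.04 ± 0.01 in not polarized cells (n = 3).

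KRT7, a type II keratin of simple and glandular epithelium, was likewise called for polarization. It lay between 191 and 259.7 CPM in CF cells in high glucose (median 219) and between 201 and 229 CPM in CF cells in normal glucose (median 217). WT cells had 245, 237, 239, 234 and 231 CPM in high glucose and 221 to 246 CPM in normal glucose (median 224), and these 4 groups overlapped in each comparison. Not polarized cells had 467, 450.0 and 466 CPM, above every polarized library, and polarized WT cells were 0.503-fold as high (log2 -0.99 ± 0.06, adjusted p = 7.82e-09). No comparison of glucose or line was called over all libraries. In CF cells in high glucose, however, libraries numbered 4 to 6 held 191 to 196 CPM and those numbered 1 to 3 held 241 to 259.7 CPM. The lines differed in high glucose within numbers 4 to 6 (log2 -0.29 ± 0.06, adjusted p = 0.000236), while numbers 1 to 3 gave log2 0.04 ± 0.06 (adjusted p = 0.697). For glucose in CF cells, numbers 4 to 6 gave log2 -0.16 ± 0.05 (adjusted p = 0.0404) and numbers 1 to 3 log2 0.19 ± 0.06 (adjusted p = 0.0537).

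KRT19, a type I keratin of simple epithelium with a very short tail domain, was called in all 5 comparisons of glucose, line and polarization. It lay between 1339 and 1551 CPM in CF cells in high glucose (median 1399) and between 1546 and 1685 CPM in CF cells in normal glucose (median 1576). WT cells had 1000.2, 1039.7, 982, 978 and 987 CPM in high glucose and 1139.6 to 1316 CPM in normal glucose (median 1238), and not polarized cells 936, 918 and 940.2 CPM. In WT cells high glucose lay below normal glucose without overlap (log2 -0.30 ± 0.05, adjusted p = 0.00191, 0.812-fold). In CF cells the change was log2 -0.16 ± 0.05 with an adjusted p of 0.0456, and the responses of the lines differed by log2 0.14 ± 0.07 (adjusted p = 0.812). In CF cells 1 library in high glucose lay within the range of normal glucose and the call held in 13 of 25 alternative settings. It was lost when any 1 of libraries 1, 4, 5 and 6 in high glucose or 2, 3 and 6 in normal glucose was left out. The adjusted p lay between 0.00245 and 0.222 over the alternatives. Within numbers 1 to 3 alone the change in CF cells was log2 -0.13 ± 0.06 (adjusted p = 0.222), and within numbers 4 to 6 alone log2 -0.21 ± 0.05 (adjusted p = 0.00654). CF cells were above WT cells without overlap, 1.42-fold in high glucose (log2 0.51 ± 0.05, adjusted p = 5.68e-08) and 1.29-fold in normal glucose (log2 0.37 ± 0.05, adjusted p = 3.20e-06). Polarized cells were 1.34-fold above not polarized cells (log2 0.42 ± 0.07, adjusted p = 0.000147).

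KRT13 was at the limit of detection. It had 37 reads in 26 libraries together, at most 6 in any library, and none in 9 of the libraries. Its mean was 0.049 CPM in CF cells in high glucose, 0.114 CPM in CF cells in normal glucose, 0.130 CPM in WT cells in high glucose, 0.049 CPM in WT cells in normal glucose and 0.091 CPM in not polarized cells. Differences at this level were not detectable at this depth.

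**Figure D4:**
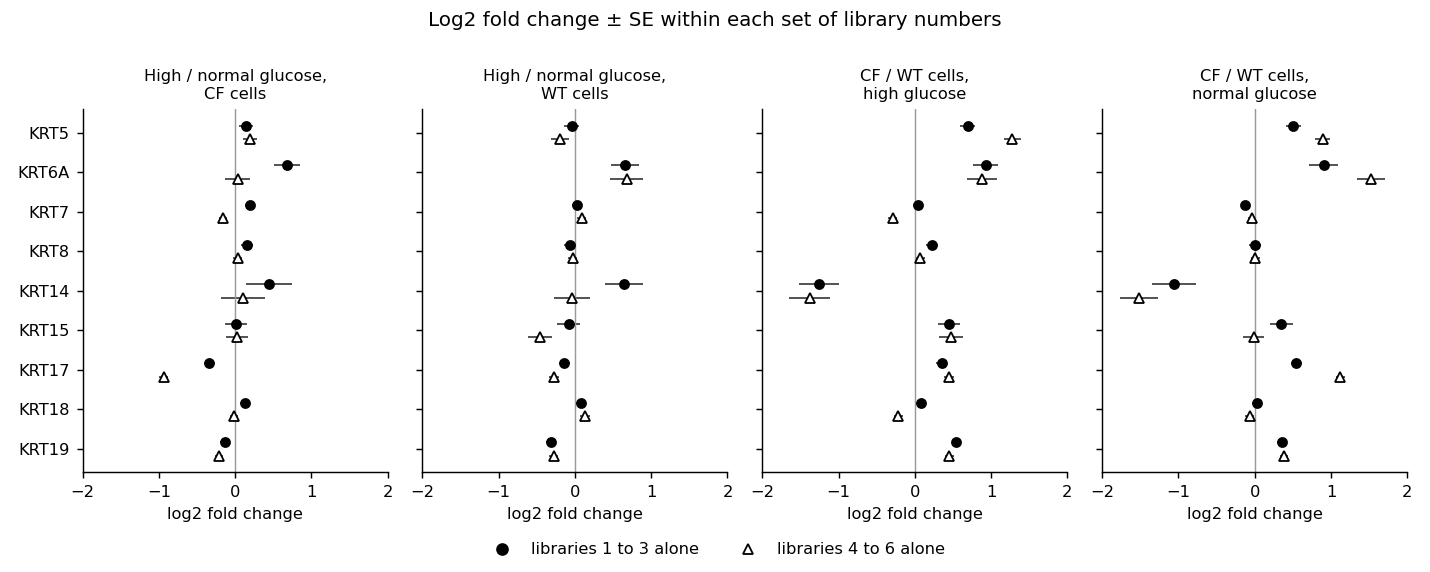
Log2 fold change ± SE (horizontal axis) of the 9 tested keratins in the comparisons of glucose and line, fitted in libraries numbered 1 to 3 alone (filled circles) and 4 to 6 alone (open triangles). The sets lie on the same side of 0 for KRT17 in all 4 panels but differ in size, with -0.34 and -0.94 for glucose in CF cells, whereas KRT7 in CF cells lies at 0.19 and -0.16.

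Several hair keratins were expressed beside the 10. Of 45 other protein-coding keratin genes in the table, 8 had no read, 8 were tested and 6 averaged at least 5 CPM in a group. None of the 8 was called for glucose in CF cells, and 1, the type I hair keratin KRT34, was higher in high glucose in WT cells (log2 0.81 ± 0.22, adjusted p = 0.0435, against log2 0.81 ± 0.27, adjusted p = 0.0652, in CF cells). Of all genes 8.41% were called for glucose in CF and 2.96% in WT cells. Between lines 2 of 8 were called in each medium, both lower in CF cells, where 10.6% of genes were lower in high and 13% in normal glucose. KRT34 gave log2 -1.58 ± 0.23 in high and -1.58 ± 0.26 in normal glucose, and KRT80, a type II keratin found near cell margins, log2 -0.29 ± 0.06 and -0.31 ± 0.06. In polarized WT cells 6 of 8 were lower than in not polarized cells and none was higher, where 24% of genes were lower and 26% higher.

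KRT81, a type II hair keratin, was by level the main one of these. It lay between 632 and 879 CPM in CF cells in high glucose, between 638 and 779 CPM in CF cells in normal glucose, between 685 and 730.5 CPM in WT cells in high glucose and between 601 and 804 CPM in WT cells in normal glucose. Not polarized cells had 1804 to 1875 CPM, and polarized cells were 0.378-fold as high (log2 -1.40 ± 0.08, adjusted p = 1.11e-08). KRT86 (log2 -1.52 ± 0.12) and KRT34 (log2 -1.41 ± 0.15) fell by a like amount. KRT80 (log2 -0.66 ± 0.06), KRT10 (log2 -0.59 ± 0.09) and KRT23 (log2 -1.20 ± 0.31) fell too, and KRT16, a partner of KRT6A in skin, gave log2 0.26 ± 0.13 and was not called. KRT86 overlaps KRT7 on the same strand, so reads in the overlap may count for neither or for either.

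**Figure D5:**
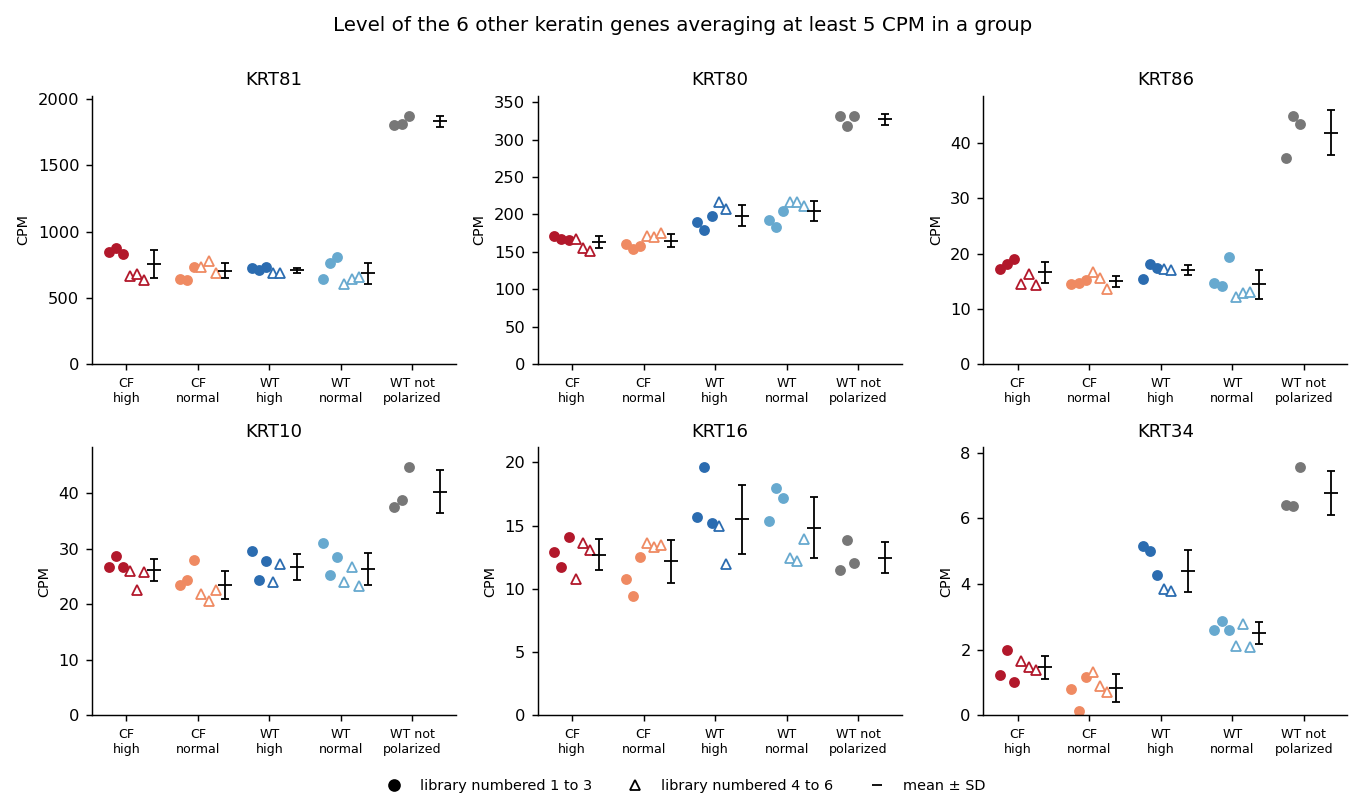
Level (CPM, vertical axis from 0) in each library of the 6 other keratins that average at least 5 CPM in a group, drawn as for the 9 keratins. KRT81, KRT80, KRT86 and KRT10 of the 3 not polarized libraries lie above all polarized libraries, and KRT34 is lower in CF than in WT cells in both media.

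Proteins that tie keratin filaments to desmosomes and hemidesmosomes, or that organise them, were counted as a group. Of 12 linkers, all tested, 2 were lower in high glucose in CF cells (PKP2, a desmosomal plakophilin, log2 -0.36 ± 0.05, and periplakin PPL, -0.31 ± 0.08) and 2 in WT cells (PKP2, -0.20 ± 0.05, and the keratin organiser FAM83H, -0.24 ± 0.06). Between lines 4 were called in high glucose (PKP3 higher in CF cells, log2 0.35 ± 0.07, with PPL, EPPK1 and PKP2 lower) and 2 in normal glucose (epiplakin EPPK1, -0.44 ± 0.08, and plectin PLEC, -0.38 ± 0.14, lower in CF cells). Polarized cells had 5 of 12 higher and 4 lower, among them EPPK1 (0.75 ± 0.08) and TCHP (-0.63 ± 0.09). Over all genes 8.41% were called for glucose in CF cells, 2.96% in WT cells, 19.9% and 24.4% between lines in high and normal glucose and 50% for polarization. The medians of the linkers lay between -0.15 and 0.04 in all comparisons.

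Among intermediate filament genes other than keratins, the mesenchymal one was near 0. VIM, the vimentin of mesenchymal cells, had 0 to 1.05 CPM over all libraries. Of 13 such genes, 7 were tested in the glucose libraries. High glucose left 1 lower in each line and none higher, where 4.14% of all genes were lower in CF and 1.47% in WT cells. CF cells had 2 higher and 2 lower than WT cells in high glucose, where 9.35% of all genes were higher and 10.6% lower. In normal glucose 1 was higher and 2 were lower, against 11.4% and 13% of all genes. INA, an intermediate filament gene of neurons, was lower in high glucose in CF cells (log2 -0.56 ± 0.12) and lower in CF than in WT cells in high glucose (-0.67 ± 0.12). The lamin LMNA was lower in high glucose in WT cells (-0.27 ± 0.04), and LMNB1 was lower in CF than in WT cells in both media (-0.24 ± 0.07 in high and -0.36 ± 0.06 in normal glucose). Of 6 tested for polarization, 5 were lower in polarized cells and none higher, where 24% of all genes were lower. A list of 13 mesenchymal genes summed to 11272 to 19595 CPM in polarized libraries and 3104 to 3172 CPM in not polarized ones. FN1 alone held 10253 to 18762 CPM and 2511 to 2563 CPM there. Of the 13 genes, 9 were tested in the glucose libraries. None was called for glucose in either line, and CF cells had 3 higher and 1 lower than WT cells in high glucose and 4 higher and 1 lower in normal glucose, where 19.9% and 24.4% of all genes were called. In polarized cells 3 of 6 tested were higher and 1 lower, with the matrix protein FN1 6.21-fold higher (log2 2.63 ± 0.13).

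Basal cell genes other than keratins were counted beside KRT5 and KRT14. Of 12, 11 were tested in the glucose libraries. High glucose left 2 lower in CF cells (the hemidesmosome integrin ITGB4, log2 -0.49 ± 0.09, and DLK2, -0.27 ± 0.08) and 1 lower in WT cells (ITGB4, -0.39 ± 0.10). Of all genes 4.14% were lower there in CF and 1.47% in WT cells. In CF cells 3 were higher than in WT cells in high glucose and 4 in normal glucose, led by the hemidesmosome collagen COL17A1 (log2 0.88 ± 0.11 and 0.70 ± 0.10), with DLK2 and ITGA6 in both media and LAMB3 in normal glucose. Of all genes 9.35% were higher in CF cells in high and 11.4% in normal glucose. Polarized cells had 6 of 10 higher, against 26% of all genes, with COL17A1 4.89-fold (log2 2.29 ± 0.06) and ITGB4 2.75-fold (log2 1.46 ± 0.07), and 2 lower, S100A2 (-1.22 ± 0.14) and SNAI2 (-2.20 ± 0.23). The median of the list was 0.64 for polarization, against 0.02 for all genes.

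Simple and luminal genes other than keratins were counted beside KRT7, KRT8, KRT18 and KRT19. Of 13, all tested, 5 were higher (the mucin MUC1 2.17-fold and the protease ST14 1.88-fold among them) and 2 lower (such as the splicing factor ESRP1, 0.621-fold) in polarized cells, where 26% of all genes were higher and 24% lower. CF cells had 6 of 13 higher than WT cells in high glucose and none lower, where 9.35% of all genes were higher and 10.6% lower. Among the 6 were SPINT1, CDH1, RAB25 and ELF3 at log2 0.21 to 0.27. In normal glucose 2 were higher (CDH1 and RAB25) and 1 lower (OVOL1), where 11.4% of all genes were higher and 13% lower. Glucose moved 1 of 13 in CF cells (ESRP1, log2 0.17 ± 0.05) and 1 in WT cells (ELF3, -0.31 ± 0.06), where 8.41% and 2.96% of all genes were called. Of 14 squamous and cornified envelope genes, 4 were tested in the glucose libraries. SFN was higher in high glucose in CF cells (0.32 ± 0.07) and lower in CF than in WT cells in normal glucose (-0.29 ± 0.07). TGM1 was higher in high glucose in WT cells (0.55 ± 0.12), and polarization gave 2 higher and 2 lower of 6, against 26% and 24% of all genes.

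Transcription factors known to act on keratin genes were mostly lower in polarized cells. Of 17 tested there, 11 were lower and 2 higher in polarized cells, where 24% of all genes were lower and 26% higher, with a median log2 fold change of -0.41. FOS, an AP-1 subunit, was 0.0241-fold as high (log2 -5.38 ± 0.13), FOSL1 0.336-fold, GRHL3 0.416-fold and KLF4 0.529-fold. With glucose, 4 of 18 were lower in CF cells (FOSL2 at log2 -0.59 ± 0.11, FOSL1, JUN and GRHL3) and 3 in WT cells (JUN, -0.44 ± 0.08, FOSL2, -0.44 ± 0.11, and ELF3), and none was higher, where 4.14% and 1.47% of all genes were lower. Between lines 3 were higher and 3 lower in CF cells in high glucose and 2 higher and 4 lower in normal glucose, where 19.9% and 24.4% of all genes were called. They included KLF5 higher (log2 0.50 ± 0.09 and 0.43 ± 0.08), FOSL1 lower (-0.88 ± 0.15 and -0.39 ± 0.14) and RELA lower (-0.42 ± 0.07 and -0.36 ± 0.07) in both media.

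Markers of other cell types were low and are given because some moved with line or polarization. The summed level of 7 ciliated markers was 28.4 to 33.0 CPM in CF and 19.2 to 21.4 CPM in WT cells in high glucose, 23.3 to 32.0 CPM in CF and 19.6 to 23.6 CPM in WT cells in normal glucose, and 12.1 to 13.9 CPM in not polarized cells. CAPS was the 1 of 5 tested that was higher in CF cells in each medium, where 9.35% of all genes were higher in high and 11.4% in normal glucose. In polarized cells 4 of 6 tested were higher and 1, FOXJ1, lower, where 26% of all genes were higher and 24% lower. Of 3 ionocyte markers only FOXI1 was tested, at log2 0.55 ± 0.17 for glucose in CF cells, -0.51 ± 0.16 between lines in high glucose and -1.24 ± 0.16 in normal glucose. COL1A1, from the fibroblast list, was lower in CF cells in both media (log2 -0.49 ± 0.16 and -0.80 ± 0.15) and higher in polarized cells (1.42 ± 0.14). CDH5, from the endothelial list, was higher in CF cells (0.84 ± 0.09 and 0.71 ± 0.09), and 1 of 2 tested endothelial markers was lower in polarized cells. The 4 leukocyte markers summed to at most 1.32 CPM, and the 1 tested was lower in CF cells in normal glucose, as were 13% of all genes. Their part in the keratin results was not tested.

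The genes whose levels ran closest to each keratin were named by Pearson's r of log2(CPM + 1) over the 26 libraries, among 10696 protein-coding genes outside the keratins. The libraries share 5 groups and 2 sets of numbers, so these values describe joint group patterns. KRT17 ran closest to NDRG1 (r = 0.99), ERO1A (0.98) and CRISPLD2 (0.98), and KRT5 to MYO7B (0.96), SEMA3B (0.95) and SUSD2 (0.95). KRT7 ran closest to SHMT2, HMGA1 and PRKCE (0.97 each), and KRT18 to WARS, SARS and AATF (0.97 each). KRT19 ran closest to ID3 (0.95), KRT6A to LCN2 (0.94), KRT8 to MRPS34 (0.92) and KRT15 to PAXIP1 (0.70), whose r was the lowest of the 8. KRT14 and KRT13 were too low for this measure.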

How the data were processed

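Polyadenylated RNA of 16HBE cells was sequenced, per the labels' protocols. HISAT2 aligned the reads to hg38, per the submitters' processing notes. The sources used here name neither the counting tool, its strand setting nor the aligner's version. Per the file headers, the deposited table holds raw counts per gene, gene lengths and the authors' FPKM, which divide by length and depth. All 26 libraries were used. The 10 genes and the gene lists were chosen with earlier results of these data known.

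The count model was edgeR 4.0.16 in R 4.3.3 (TMM scaling, filterByExpr with a minimum count of 10 and total of 15, robust quasi-likelihood F tests, Benjamini-Hochberg adjustment over all genes tested, called at an adjusted p under 0.05). A fit of the 23 glucose libraries by group tested 16338 genes with 19 residual degrees of freedom, and a fit of the 9 WT libraries in normal glucose, polarized or not, tested 16105 genes with 7. CPM are counts over TMM-adjusted totals of all 26 libraries. Intervals are at the 95% level. The fits were tested on simulated counts with the same spread for every gene and no sets of library numbers. That test cannot show how the fits handle the sets. All 10 keratins were named, with the other keratins averaging at least 5 CPM in a group, the 5 highest pseudogenes, up to 4 called genes of a list with at least 5 CPM, and the 3 genes most like each keratin averaging at least 5 CPM. NGFR, TP63, KRT23, SNAI2 and FOXJ1, and the basal genes' levels, were named after their values were seen.

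Replicates differed by more than counting noise (chi-square per degree of freedom 1.95 to 49.5 over 58 pairs), so none was merged. Residuals of libraries with the same number in their names correlated above 0.1 in every pair for glucose in CF cells (mean r 0.377 across genes) and for the lines in normal (0.262) and high glucose (0.331). A block by number was therefore run as an alternative, and the main fits used no block. Differently numbered libraries within 1 to 3 or within 4 to 6 correlated about as much (0.360, 0.264 and 0.338). Whether the correlation goes with the single number or with the set was not tested. With this block 2561 genes were called for glucose in CF cells, against 1374 without it. Alternatives were DESeq2 1.42.0, RLE factors, no filter, a filter at a CPM of 1 in 5 libraries (3 for polarization), limma-trend 3.58.1 on log2 FPKM plus 1 or 0.1, other sets of libraries and each library left out. The principal transcript length was added after the data were seen.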

Additional observations from a re-analysis of the deposited data

Results flagged for a closer look

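In 5 of 40 groups of libraries tested, 1 library stood apart from the others of its group by a gap that Dixon's test puts past its 95% value. For normally spread values chance flags about 1 in 20 groups, a rate that does not hold for counts as low as those of KRT13. KRT14 was 2.78 CPM in library 2 of CF cells in high glucose, against 1.31 to 1.74 CPM in the other 5. KRT15 was 10.0 CPM in library 5 of the same group, against 8.21 to 8.73 CPM. KRT19 was 1685 CPM in library 3 of CF cells in normal glucose, against 1546 to 1595 CPM. KRT13 was 0.172 CPM in library 4 of CF cells in high glucose, against 0 to 0.064 CPM, and 0.354 CPM in library 3 of CF cells in normal glucose, against 0 to 0.132 CPM, values that rest on 3 and 6 reads. Without library 2 of CF cells in high glucose, KRT14 stayed lower in CF than in WT cells.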

How the results depend on the processing

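Of 1368 repeats of the 54 keratin tests (9 genes in 6 comparisons) under alternative settings, 1342 kept their side of the threshold, 15 lost their call, 10 gained one and 1 called value changed sign. Among the 1342, 39 changed sign without being called in either fit. The called one was KRT7 for glucose in CF cells, log2 0.03 in all libraries and -0.16 in those numbered 4 to 6 alone. For glucose in CF cells the count of 2 keratins became 1 with no low-count filter, with limma on log2(FPKM + 0.1) or with no FPKM filter, and in a fit of the compared groups alone, and it was 1 to 2 with a library left out. KRT19 was the gene lost each time. For glucose in WT cells the count of 2 became 1 with limma and no filter and in libraries numbered 1 to 3 alone, where KRT6A was lost. The count of keratins with unequal glucose response was 0, and 1 (KRT17) in libraries numbered 4 to 6 alone. With a library left out, the counts were 6 to 6 and 5 to 5 between lines in high and normal glucose, 2 to 2 for glucose in WT cells, 0 to 0 for the unequal response and 6 to 7 for polarization. For KRT8, polarization was called with no filter (log2 -0.18, adjusted p = 0.0458). The cause was not tested.

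The replicate block gave 2 keratins for glucose in CF and 2 in WT cells, 7 and 5 between lines in high and normal glucose, 0 for the unequal response and 6 for polarization, so apart from KRT8 between lines in high glucose it changed no keratin call. Same-numbered libraries did not correlate above 0.1 in every pair for glucose in WT cells, where the lowest pair had r = 0.080, or for polarization. In no comparison did every library correlate best with its own number (2 of 6 and 2 of 5 for glucose in CF and WT cells, 1 of 5 and 1 of 6 between lines in high and normal glucose, 0 of 3 for polarization). Counts over all genes moved by more than 1.5 times. Glucose in CF cells gave 1374 genes, but 2561 with the block, 2812 with a term for the sets of numbers, 2330 in numbers 4 to 6 alone and 891 without a filter. Glucose in WT cells gave 484, but 1092, 1418, 823 and 319 under these settings and 809 with DESeq2, and 281 to 465 with a library left out. The unequal response gave 6, but 73 with the block, 146 with the term, 387 in numbers 4 to 6 alone, 1 in numbers 1 to 3 alone, 67 with DESeq2 and 0 to 19 with a library left out. Lines in high glucose gave 3253, but 4973 with the term. With principal transcript lengths, chosen after seeing the data, the type I over type II ratio of the 10 keratins was 1.02 to 1.82 over the groups, against 1.65 to 3.07. Depth limits KRT13, and KRT14 at 11 to 94 reads per library.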
